A study of Mus musculus with 9 samples.

Results

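The phagocyte NADPH oxidase was examined in mouse epididymal white adipose tissue through 7 genes chosen by gene name: Cybb, Cyba, Ncf1, Ncf4, Rac2, Coro1a and Hvcn1. All 7 were found among the 28481 genes of the table, and all 7 passed the filter on low counts that left 16123 genes for testing. RNA had been sequenced from 4 libraries labelled UBKO, in which Ctnnb1 (beta-catenin) was knocked out by a Cre driven by Ucp1, and from 5 libraries labelled Control; the sources used here do not say which alleles the Control mice carried. Every library of both groups came from mice given CL316,243, an agonist of the beta3-adrenergic receptor. The Cre acts where Ucp1, the uncoupling protein of thermogenic fat cells, is expressed, so it is not directed at the leukocytes in which the oxidase is best known. Age, sex and whether each library came from its own animal are not stated, so p-values measure only how far these libraries spread, and that spread may be technical.

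The phagocyte NADPH oxidase carries electrons from NADPH across a membrane to oxygen and makes superoxide. Its membrane core, cytochrome b558, is a pair of gp91phox (Cybb), which holds the flavin and hemes, and p22phox (Cyba), which stabilises it. On activation, cytosolic subunits that include p47phox (Ncf1), the organiser that is phosphorylated, and p40phox (Ncf4), which binds phosphatidylinositol 3-phosphate on phagosomes, move to the membrane together with the GTPase Rac2. Coro1a encodes coronin 1A, an actin-binding protein of leukocytes that binds p40phox, and Hvcn1 encodes the voltage-gated proton channel that lets protons follow the electrons. In adipose tissue macrophages are the most abundant resident phagocytes. Loss of core subunits causes chronic granulomatous disease in people.

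Promoter sequences were available from RefSeq (GRCm38.p6, the same assembly as mm10) for 4 of the 7 genes, and are shown because the genes moved together. Each line gives the 120 bases before a transcription start, on the gene's own strand, for Cybb (chrX:9469325-9469444, minus strand), Cyba (chr8:122432941-122433060, minus strand), Ncf1 (chr5:134229626-134229745, minus strand) and the 2 starts of Coro1a (chr7:126704817-126704936 and chr7:126704221-126704340, minus strand). Capitals mark GGAA, the core read by ETS factors such as PU.1, or TTCC where it lies on the other strand.
Cybb: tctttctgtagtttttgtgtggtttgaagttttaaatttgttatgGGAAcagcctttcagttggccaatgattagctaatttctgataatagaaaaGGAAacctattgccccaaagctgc
Cyba: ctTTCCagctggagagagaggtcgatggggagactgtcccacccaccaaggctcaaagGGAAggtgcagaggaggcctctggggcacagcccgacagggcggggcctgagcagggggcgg
Ncf1: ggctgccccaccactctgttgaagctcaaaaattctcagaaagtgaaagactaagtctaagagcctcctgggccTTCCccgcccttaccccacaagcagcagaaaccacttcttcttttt
Coro1a, first start: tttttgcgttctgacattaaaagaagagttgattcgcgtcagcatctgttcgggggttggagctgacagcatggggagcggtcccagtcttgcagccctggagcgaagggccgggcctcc
Coro1a, second start: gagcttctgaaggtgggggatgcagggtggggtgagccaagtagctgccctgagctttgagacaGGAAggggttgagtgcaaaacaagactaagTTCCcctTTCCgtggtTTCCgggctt
No exon of GENCODE M21 lay in these windows. Of all 32851 RefSeq promoters, 73.4% held GGAA on either strand within the same 120 bases. The longer motif GAGGAA, which contains GGAA, was found on neither strand in the 250 bases before any of these starts, while 23.3% of all promoters held it.

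Gene counts summed to between 16609632 and 17632709 in UBKO libraries and between 15308480 and 17362336 in Control libraries. Control replicates 1 and 2 stood apart: the 10 epididymis markers took 2.23% and 1.97% of their counts, and at most 0.000144% in any other library. Ctnnb1 stood at 224 ± 56.7 CPM (read counts relative to the TMM-scaled library size; SD, n = 4) in UBKO libraries and 311 ± 36.7 CPM (SD, n = 5) in Control libraries, a log2 difference of -0.48 with an adjusted p of 0.0976 in the quasi-likelihood test of edgeR, which it did not pass. The library labelled UBKO replicate 3 had 307 CPM of Ctnnb1, within the Control range, and the directions below include it. Ucp1 was 1.41 higher on the log2 scale in UBKO libraries (edgeR adjusted p = 0.0365), at low levels. It had 4.55 ± 2.54 CPM (SD, n = 4) in UBKO and 1.71 ± 0.463 CPM (SD, n = 5) in Control libraries. UBKO replicate 1 was the highest, at 8.27 CPM. Across all genes tested, 7.56% were lower in UBKO and 3.88% higher at an edgeR adjusted p under 0.05. Scaling by total counts put 27.8% lower and 1.46% higher, and gave all genes a median log2 difference of -0.39, against -0.01 with TMM.

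In UBKO fat, 6 of the 7 oxidase genes were lower and 0 were higher, by 3.92-fold (Cyba) to 5.17-fold (Ncf1), against 7.56% of all genes lower. The seventh, Hvcn1, did not pass; it did with scaling by total counts, where 7 of 7 were lower against 27.8% of all genes, and with DESeq2, where 7 of 7 were lower against 11.4%. The 7 log2 differences had a median of -2.02, and all 16123 genes tested a median of -0.01. In the same 6 genes every UBKO library lay below every Control library, a pattern found in 9.11% of all genes tested.

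**Figure D1:**
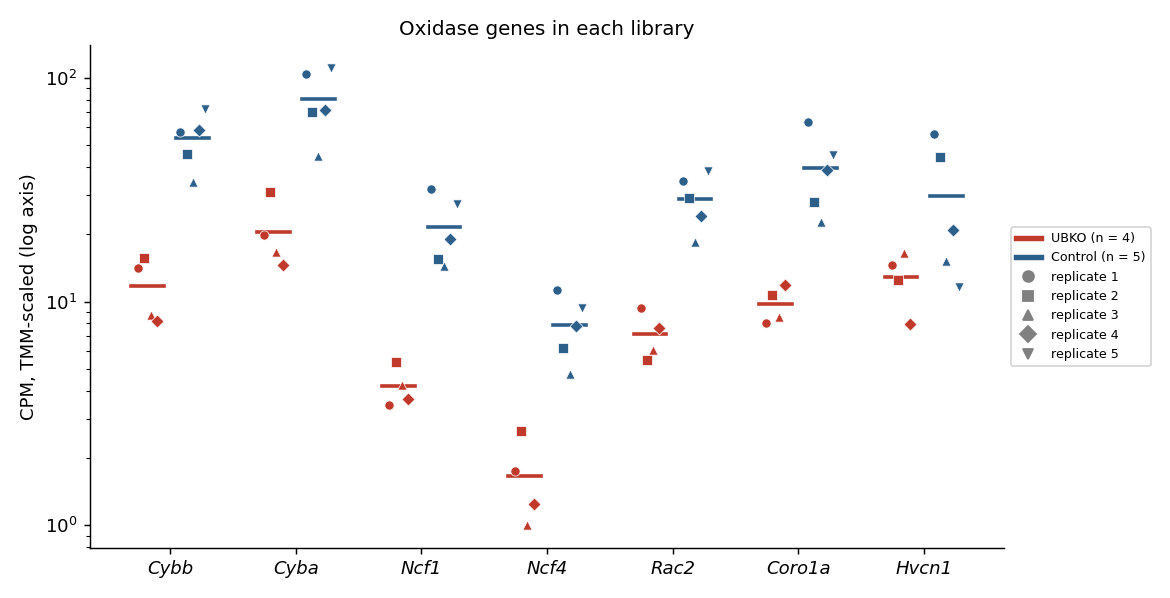
Level of each oxidase gene in every library, in TMM-scaled CPM on a log axis; red points are UBKO libraries (n = 4), blue points Control libraries (n = 5), bars are group means and the point shape gives the replicate number. The groups are apart for all genes but Hvcn1, where UBKO libraries at 7.92 to 16.6 CPM overlap Control libraries at 11.6 to 55.9 CPM.

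Both genes of the membrane core fell. Cybb (ENSMUSG00000015340, mm10 chromosome X, 9435252 to 9487771) had 14.1, 15.7, 8.68 and 8.20 CPM in UBKO replicates 1 to 4, against 57.3, 45.8, 34.2, 58.6 and 72.3 CPM in Control replicates 1 to 5. The highest UBKO library stood below the lowest Control library, replicate 3. Its log2 difference was -2.20 (SE 0.27, 95% interval -2.80 to -1.59, edgeR adjusted p = 0.00196). The raw counts behind it were 118 to 243 in UBKO libraries and 571 to 1241 in Control libraries. In bulk tissue, fewer cells of a type and less RNA per cell cannot be told apart.

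Cyba (ENSMUSG00000006519, mm10 chromosome 8, 122424776 to 122432930) had 19.9, 30.7, 16.7 and 14.6 CPM in UBKO replicates 1 to 4, against 104, 70.4, 44.9, 71.8 and 110.45 CPM in Control replicates 1 to 5. UBKO replicate 2 was the highest of its group and Control replicate 3 again the lowest, and the groups did not overlap. Cyba fell by 1.97 on the log2 scale with an SE of 0.31 (edgeR adjusted p = 0.00447). p22phox also serves other members of the NADPH oxidase family and is made in many cell types.

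Both cytosolic subunits fell by about as much. Ncf1 (ENSMUSG00000015950, mm10 chromosome 5, 134220053 to 134229625) had 3.45, 5.37, 4.23 and 3.68 CPM in UBKO replicates 1 to 4, against 32.0, 15.5, 14.4, 19.0 and 27.2 CPM in Control replicates 1 to 5. UBKO libraries kept within a narrow range, while Control replicate 1 was the highest of its group. Ncf1 fell by 2.37 on the log2 scale with an SE of 0.28 (edgeR adjusted p = 0.00177), the largest fall of the 7 genes. It shares exon sequence with Gtf2ird2 on the opposite strand, which held 26.6% as many counts over all libraries together. The sources used here do not say whether the library kit marked strand, so reads of the shared stretch cannot be told apart. In UBKO libraries alone the mean of Ncf1 was 4.18 CPM, close to that of Gtf2ird2. Gtf2ird2 itself stood at 3.65 ± 1.98 CPM (SD, n = 4) in UBKO and 4.07 ± 2.45 CPM (SD, n = 5) in Control libraries, with a log2 difference of -0.16 that did not pass (edgeR adjusted p = 0.89).

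Ncf4 (ENSMUSG00000071715, mm10 chromosome 15, 78244801 to 78262580) had the fewest counts of the 7 genes. Its level was 1.76, 2.65, 1.0 and 1.25 CPM in UBKO replicates 1 to 4, against 11.3, 6.19, 4.73, 7.75 and 9.37 CPM in Control replicates 1 to 5. The groups did not overlap, though counts in UBKO libraries were only 14 to 41 per library, which limits precision. Ncf4 fell by 2.23 on the log2 scale with an SE of 0.36 (edgeR adjusted p = 0.005).

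Rac2 (ENSMUSG00000033220, mm10 chromosome 15, 78559167 to 78572783), the Rac GTPase of blood cells, had 9.38, 5.50, 6.10 and 7.65 CPM in UBKO replicates 1 to 4, against 34.6, 29.0, 18.5, 24.1 and 38.3 CPM in Control replicates 1 to 5. UBKO replicate 1 was the highest of its group, and no UBKO library reached the Control range. Rac2 fell by 2.01 on the log2 scale with an SE of 0.25 (edgeR adjusted p = 0.00194). Its paralogs did not pass the test with TMM scaling: Rac1, found in most cell types, had 328 ± 27.0 CPM (SD, n = 4) in UBKO and 320 ± 24.0 CPM (SD, n = 5) in Control libraries, with a log2 difference of 0.04 (edgeR adjusted p = 0.851), and Rac3 had a log2 difference of -0.14 (edgeR adjusted p = 0.795). With scaling by total counts the log2 difference of Rac1 turned to -0.36 and was called lower (edgeR adjusted p = 0.0483). Rac1 and Rac3 were chosen after their values were seen.

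Coro1a (ENSMUSG00000030707, mm10 chromosome 7, 126699773 to 126707787) had 8.01, 10.7, 8.53 and 11.8 CPM in UBKO replicates 1 to 4, against 63.6, 27.8, 22.7, 38.7 and 45.4 CPM in Control replicates 1 to 5. Control replicate 1 was the highest, and the groups did not overlap. Coro1a fell by 2.02 on the log2 scale with an SE of 0.30 (edgeR adjusted p = 0.00355). It shares exon sequence with Bola2 on the opposite strand, which held 73.1% as many counts over all libraries together. Bola2 stood at 18.7 ± 3.78 CPM (SD, n = 4) in UBKO and 22.0 ± 2.24 CPM (SD, n = 5) in Control libraries, and its log2 difference of -0.23 did not pass (edgeR adjusted p = 0.34). In UBKO libraries alone the mean of Coro1a was 9.76 CPM, below that of Bola2. The part of Bola2 reads in the Coro1a counts was not tested.

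Hvcn1 (ENSMUSG00000064267, mm10 chromosome 5, 122206804 to 122242297) was the exception. It had 14.6, 12.6, 16.6 and 7.92 CPM in UBKO replicates 1 to 4, against 55.9, 44.5, 15.2, 20.8 and 11.6 CPM in Control replicates 1 to 5. Control replicates 1, 2 and 4 stood above every UBKO library, with the first 2, the libraries with epididymal transcripts, far above the rest, and Control replicate 5 was below 3 of the 4 UBKO libraries. The log2 difference was -1.20 (SE 0.47, 95% interval -2.24 to -0.15, edgeR adjusted p = 0.128). Without Control replicates 1 and 2 it was -0.31 (edgeR adjusted p = 0.573). The adjusted p was 0.0396 by the Wald test of DESeq2 and 0.0426 by edgeR after total-count scaling (log2 difference -1.66), while over 19 alternatives the adjusted p ran from 0.0396 to 0.573. Hvcn1 shares exon sequence with Tctn1 on the opposite strand, a gene of primary cilia that held 60.0% as many counts over all libraries together. In UBKO libraries alone the means were close, at 11.7 CPM for Tctn1 and 12.9 CPM for Hvcn1. Tctn1 also had its highest values, 20.2 and 20.96 CPM, in Control replicates 1 and 2. The part of Tctn1 or of epididymal RNA in the Hvcn1 counts was not tested.

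Without Control replicates 1 and 2 the other 6 genes were each still called lower, against 4.90% of all genes, with log2 differences from -1.88 (Coro1a) to -2.28 (Ncf1) and edgeR adjusted p between 0.0047 and 0.0186. Each of the 6 also passed in 9 of 9 fits that left out 1 library, with a highest edgeR adjusted p of 0.0248 (Ncf4 without UBKO replicate 4), where 3.63% to 9.41% of all genes were lower; without the library labelled UBKO replicate 3 their highest was 0.0242 (Cyba). In the authors' deposited table the same 6 genes had log2 ratios between -2.75 and -2.34 with q-values up to 0.0002, and Hvcn1 had -1.61 with a q-value of 0.0905; 3.50% of the genes in that table were lower at a q-value under 0.05.

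The level of macrophage markers moved with these genes. Of 12 macrophage markers 10 were lower and 0 higher in UBKO, against 7.56% of all genes lower. The count was 9 without Control replicates 1 and 2, where 4.90% of all genes were lower. It was 11 after total-count scaling and by DESeq2, where 27.8% and 11.4% of all genes were lower. The call of Cd14 ended without Control replicates 1 and 2 (edgeR adjusted p = 0.0633) and in most fits that left out 1 library. The 12 markers had a median log2 difference of -2.32, and their summed level was 252 to 313 CPM in UBKO libraries and 850 to 1772 CPM in Control libraries. None of the 12 was at 0 in any library. Lyz2, the lysozyme of myeloid cells, fell by 2.27 and Csf1r, which encodes the receptor of colony-stimulating factor, by 2.44 on the log2 scale (edgeR adjusted p = 0.00133 and 0.00113), while Mertk, a receptor for dying cells, had a log2 difference of -0.04 (edgeR adjusted p = 0.904). The oxidase genes were also expressed per 1000 reads of the macrophage markers in the same library.

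On that scale 0 of the 7 oxidase genes were lower and 1, Hvcn1, was higher, against 0.360% of all genes lower and 93.2% higher. Cybb had 40.4 ± 9.46 reads per 1000 macrophage marker reads in UBKO libraries (SD, n = 4) and 40.4 ± 0.911 in Control libraries (SD, n = 5). The 5 Control libraries lay between 39.4 and 41.8, although their Cybb CPM spanned 34.2 to 72.3, and the 4 UBKO libraries lay on both sides, between 32.0 and 50.3. A fit with the marker counts as library size gave Cybb a log2 difference of 0.00 (95% interval -0.47 to 0.47, edgeR adjusted p = 0.997). With the 12 markers weighted equally it was -0.076 (edgeR adjusted p = 0.734). Lyz2 was the most abundant of the markers, at 137 ± 24.2 CPM (SD, n = 4) in UBKO and 659 ± 194 CPM (SD, n = 5) in Control libraries. The markers did not move as one: relative to their own sum 4 of the 12 were lower and 2 higher. Their log2 differences on this scale ran from -1.06 (Fcgr1) to 2.06 (Mertk). Cyba had 70.9 ± 18.6 reads per 1000 in UBKO and 59.9 ± 8.31 in Control libraries, a log2 difference of 0.24 (95% interval -0.25 to 0.73).

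Ncf1 had 14.7 ± 2.45 reads per 1000 macrophage marker reads in UBKO and 16.3 ± 3.51 in Control libraries, with a log2 difference of -0.15 (95% interval -0.72 to 0.42). For Ncf4 the log2 difference was -0.04 (95% interval -0.78 to 0.71), for Rac2 0.21 (-0.33 to 0.75) and for Coro1a 0.23 (-0.33 to 0.79). None of these 6 passed, with edgeR adjusted p between 0.316 and 0.997, which does not show that they were equal: the intervals allow differences of up to 0.79 on the log2 scale. Hvcn1 was higher on this scale, at 45.3 ± 12.6 reads per 1000 in UBKO and 23.3 ± 14.6 in Control libraries (log2 difference 0.96, edgeR adjusted p = 0.0445), and was called in 8 of 14 alternatives, with edgeR adjusted p from 0.000159 to 0.133. Without Control replicates 1 and 2 the log2 difference was 1.79 (edgeR adjusted p = 0.000159). It was not called without a filter, without Control replicate 3, 4 or 5, or without UBKO replicate 1 or the library labelled UBKO replicate 3. On this scale 93.2% of all genes tested were higher and 0.360% lower relative to macrophage markers, with a median log2 difference of 2.13. Relative to 8 pan-leukocyte markers 93.9% of genes were higher. With TMM scaling 7 of these markers were lower in UBKO (median log2 difference -2.42), against 7.56% of all genes.

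**Figure D2:**
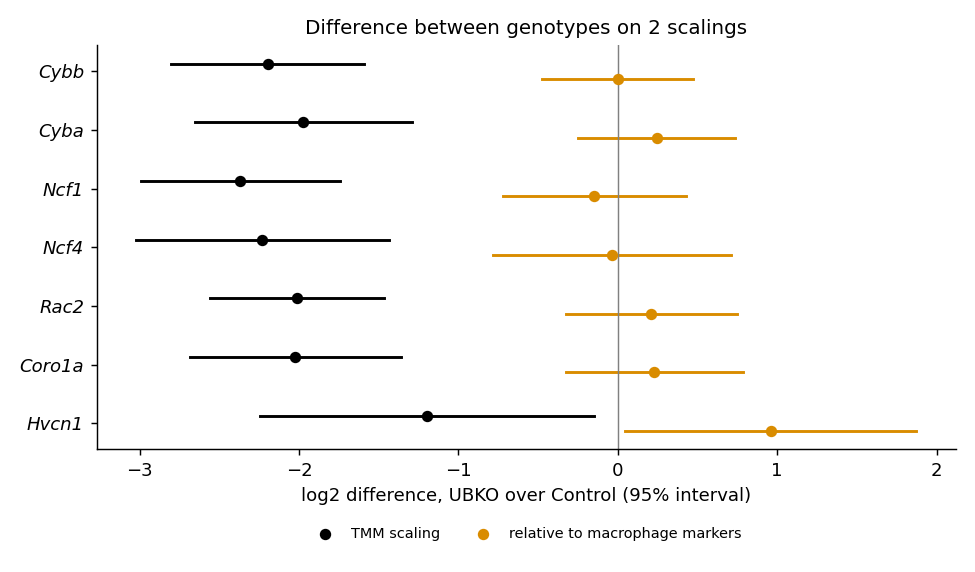
Log2 difference between UBKO and Control libraries for each oxidase gene, with 95% intervals, from TMM scaling (black) and relative to the summed counts of 12 macrophage markers (orange). Black points of 6 genes lie between -2.37 and -1.97 with intervals clear of 0, and the orange points of the same genes lie between -0.15 and 0.24 with intervals that span 0.

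**Figure D3:**
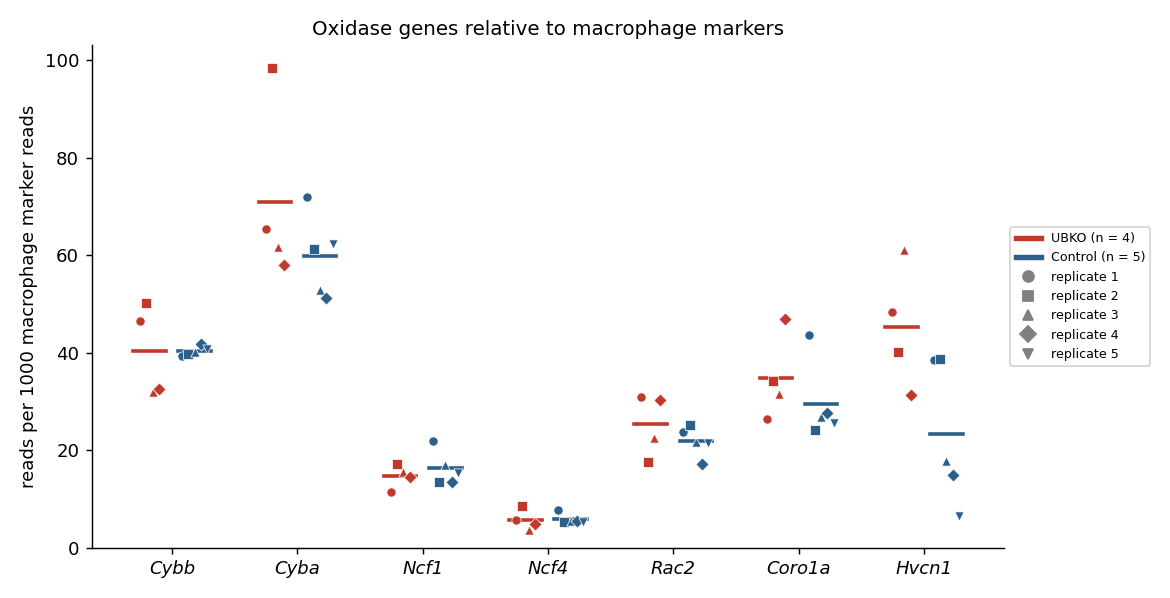
Reads of each oxidase gene per 1000 macrophage marker reads in every library; red points are UBKO (n = 4), blue points Control (n = 5), bars are group means. Cybb lies between 39.4 and 41.8 in the 5 Control libraries, while Hvcn1 runs from 6.54 to 38.7 there.

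Levels of different genes were compared per length, in FPKM as deposited. Cyba was the most abundant of the 7 in 9 of 9 libraries, with 13.8 ± 5.74 FPKM in UBKO (SD, n = 4) and 70.0 ± 28.2 FPKM in Control libraries (SD, n = 5), and held 60.3% of the summed FPKM of the 7 genes in UBKO and 62.3% in Control libraries. Its FPKM was 8.57 ± 1.23 times that of Cybb in UBKO and 7.21 ± 1.13 times in Control libraries. In Control libraries Cybb (9.50 ± 2.88 FPKM), Rac2 (8.95 ± 3.08), Coro1a (8.68 ± 4.30) and Hvcn1 (8.11 ± 6.06) followed and differed by less than their spread. Ncf1 (3.63 ± 1.599 FPKM) and Ncf4 (2.96 ± 1.22) came last.

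In UBKO libraries Hvcn1 came second with 2.65 ± 0.772 FPKM, ahead of Rac2 (1.69 ± 0.398), Coro1a (1.63 ± 0.308) and Cybb (1.62 ± 0.616), which differed by less than their spread. Ncf1 and Ncf4 had 0.54 ± 0.14 and 0.488 ± 0.243 FPKM. They were the lowest pair in 8 of 9 libraries; in Control replicate 5 Hvcn1 was lower still. The order in the middle depends on the length behind the value: the deposited FPKM imply 1296 bases for Cyba and 5177 for Coro1a, where the longest coding transcripts of GENCODE M21 have 744 and 1747. With the latter lengths, an alternative chosen after seeing the data, Coro1a came second in both groups. Its rescaled FPKM was 4.82 ± 0.912 in UBKO and 25.7 ± 12.7 in Control libraries. Cyba stayed first, and Ncf1 and Ncf4 last. Rescaled means of Cyba and Cybb were 24.1 and 2.15 in UBKO libraries, and 122 and 12.6 in Control libraries.

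**Figure D4:**
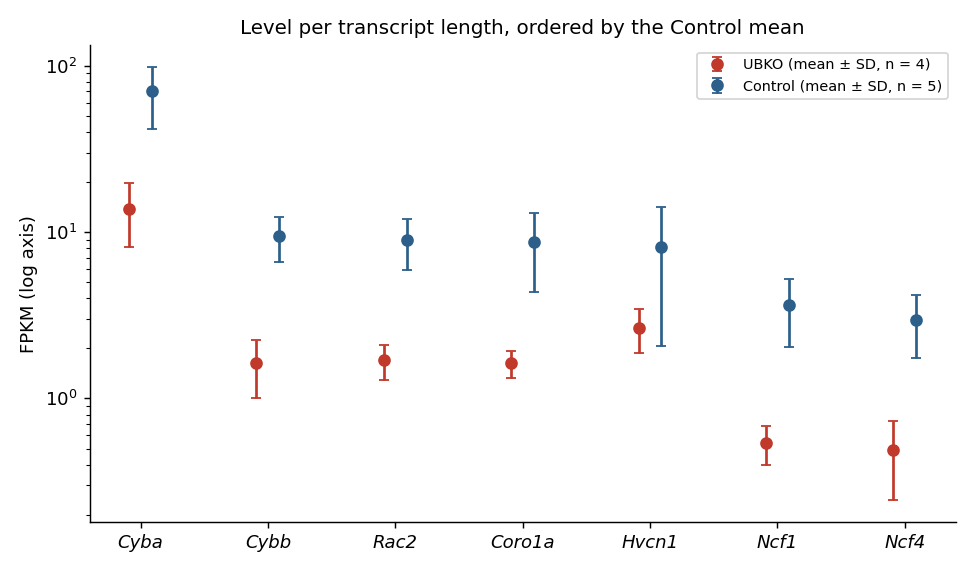
Mean FPKM of each oxidase gene on a log axis, with SD, in UBKO (red, n = 4) and Control libraries (blue, n = 5), ordered by the Control mean. Cyba stands at 13.8 FPKM in UBKO and 70.0 FPKM in Control libraries, above the other 6 genes, and the 2 cytosolic subunits at the low end.

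Likeness of profile was measured as the root mean square difference of log2 CPM, centred over the 9 libraries, among 11742 genes with a mean of at least 1 FPKM. The profile of Cybb was nearest to those of Dpep2, a membrane dipeptidase (0.14), Lyz2 (0.16) and Clec7a, the beta-glucan receptor dectin-1 (0.21), followed, outside the oxidase genes, by Lgmn, the lysosomal protease legumain (0.24), Igsf6 (0.25) and P2ry6, a nucleotide receptor (0.26). Ncf4 and Cyba ranked 4 and 5 in the same order, at 0.21 and 0.23. Ncf1, Rac2 and Coro1a ranked 39, 92 and 124, and Hvcn1 ranked 1718 with 0.996. These values describe 9 libraries in 2 groups and carry no test.

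Of 25 other genes of oxidase assembly and activation, all tested, 16 were lower in UBKO and 0 higher, with a median log2 difference of -1.43. Of all genes 7.56% were lower. Without Control replicates 1 and 2, 14 were lower against 4.90% of all genes, and after total-count scaling 23 against 27.8%. The calls of Arhgdia and Fgr ended without Control replicates 1 and 2 (edgeR adjusted p = 0.0978 and 0.056). That of Arhgdia also ended in most fits that left out 1 library, and that of Fgr without UBKO replicate 1, the library labelled UBKO replicate 3 or UBKO replicate 4. Syk, the kinase that relays Fc receptor and integrin signals, fell by 2.66 on the log2 scale, and Fermt3, the kindlin of leukocyte integrins, by 2.69 (edgeR adjusted p = 0.00187 and 0.00159). Prex1, an exchange factor that activates Rac, fell by 1.02 (edgeR adjusted p = 0.00133). Cybc1, the chaperone of the cytochrome, had 12.3 ± 5.40 CPM in UBKO and 21.8 ± 4.19 CPM in Control libraries and did not pass (log2 difference -0.83, edgeR adjusted p = 0.121), but was lower after total-count scaling (log2 difference -1.23, edgeR adjusted p = 0.0299); it was chosen after its values were seen. Relative to macrophage markers 13 of the 25 were higher and 0 lower, where 93.2% of all genes tested were higher.

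Other NADPH oxidases were low in this tissue. Of 9 listed genes 5 were tested and 0 were called by edgeR (0 also by DESeq2, 1 lower at an unadjusted p under 0.05, and 2 lower after total-count scaling). Among all genes 7.56% were lower with TMM and 27.8% with total-count scaling. Nox4, the oxidase of fat and vessel cells, had 2.19 ± 0.908 CPM in UBKO and 1.79 ± 0.451 CPM in Control libraries (log2 difference 0.30, edgeR adjusted p = 0.61; -0.06 with scaling by total counts). Duox1 summed to 8 counts in UBKO and 53 in Control libraries (log2 difference -2.06, edgeR adjusted p = 0.0551). Nox1, Noxa1 and Duoxa2 were below the filter, with at most 15 counts over a group.

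Of 6 other coronins 1 was lower, Coro1c, by 0.72 (edgeR adjusted p = 0.018), against 7.56% of all genes. Its call ended without UBKO replicate 1, the library labelled UBKO replicate 3 or UBKO replicate 4 (edgeR adjusted p = 0.0607, 0.0518 and 0.053). Scaling by total counts gave 3 lower, against 27.8% of all genes. Coro1b, the broadly expressed relative of Coro1a, had a log2 difference of 0.07 (edgeR adjusted p = 0.827; -0.29 with scaling by total counts) and was chosen after its values were seen.

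**Figure D5:**
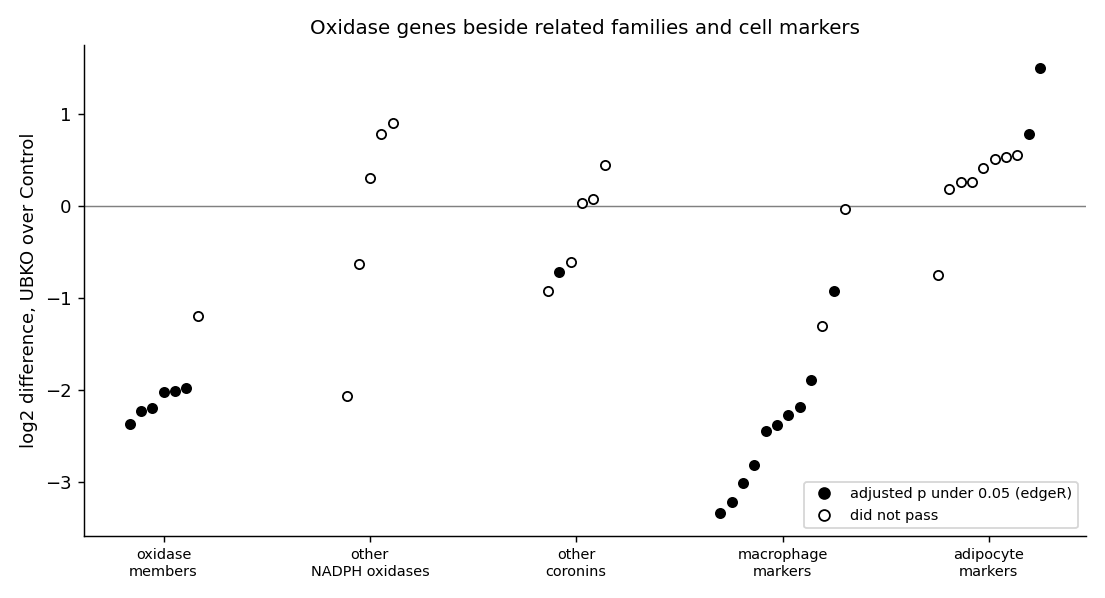
Log2 difference between UBKO and Control libraries (TMM scaling) for the tested genes of 5 lists; filled points passed edgeR's test at an adjusted p under 0.05. Of the 7 oxidase genes 6 are filled, against 0 of 5 other NADPH oxidases, 1 of 6 other coronins, 10 of 12 macrophage markers and 2 of 10 adipocyte markers.

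Enzymes that dispose of superoxide and peroxide showed small differences. Of 14 tested, Sod2, the mitochondrial superoxide dismutase, rose by 0.42 on the log2 scale, and Prdx4 and Prdx6, both peroxiredoxins, fell by 0.49 and 0.57 (edgeR adjusted p = 0.0377, 0.0434 and 0.0478). All 3 calls ended without Control replicates 1 and 2 (edgeR adjusted p = 0.116, 0.0952 and 0.106), and in most fits that left out 1 library, while scaling by total counts put the log2 difference of Sod2 at 0.04. Mpo, the peroxidase of neutrophil granules, summed to 2 counts in UBKO and 24 in Control libraries and was below the filter; it was chosen after its values were seen.

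Of 12 phagosome channels and transporters 8 were lower and 0 higher, against 7.56% of all genes lower. The count was 6 of 11 tested without Control replicates 1 and 2, against 4.90% of all genes. After total-count scaling it was 10, against 27.8%. Of the 8 calls, those of Clcn5, Clcn7, Kcnn4 and Tcirg1 ended without the library labelled UBKO replicate 3 and again without UBKO replicate 4 (edgeR adjusted p between 0.0506 and 0.137), and those of the first 3 ended without UBKO replicate 1 (0.0709 to 0.103). Slc11a1, the phagosomal metal transporter of macrophages, fell by 2.85 on the log2 scale and Trpv2, a calcium channel, by 1.70 (edgeR adjusted p = 0.00133 and 0.00194). Of 10 tested myeloid transcription factors 4 were lower and 0 higher (3 without Control replicates 1 and 2, 7 after total-count scaling). The same shares of all genes stand beside these counts. Spi1, which encodes PU.1, fell to 6.49 ± 0.913 CPM in UBKO, against 45.6 ± 16.1 CPM in Control libraries, by 2.81 on the log2 scale (edgeR adjusted p = 0.0013). Irf5, an interferon regulatory factor, fell by 2.23 (edgeR adjusted p = 0.00738), and the call of Irf8 (log2 difference -1.53, edgeR adjusted p = 0.0327) ended without Control replicates 1 and 2 (adjusted p = 0.102) and in 8 of 9 fits that left out 1 library, all but the one without Control replicate 3.

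Markers of other blood cell types were measured beside the oxidase genes. The 7 neutrophil markers in the table summed to 4.21 to 5.66 CPM in UBKO and 4.49 to 10.2 CPM in Control libraries, with 1 to 4 of them at 0 in a library, and S100a9 summed to 7 counts in UBKO and 14 in Control libraries. Of the 2 tested 0 passed by edgeR, 1 was lower at an unadjusted p under 0.05, and 1 was lower by DESeq2. The 5 eosinophil markers summed to at most 1.01 CPM and none was tested. The 6 B cell markers summed to 2.87 to 4.10 CPM in UBKO and 5.79 to 12.3 CPM in Control libraries; Cd22 was lower (edgeR adjusted p = 0.0199, 0.052 without Control replicates 1 and 2, and 0.0549, 0.0712 and 0.062 without UBKO replicate 1, the library labelled UBKO replicate 3 and UBKO replicate 4). Of 4 tested T and NK cell markers 0 were called by edgeR, 1 was lower at an unadjusted p under 0.05 and 1 was lower by DESeq2. The 8 listed summed to 3.65 to 5.18 CPM in UBKO and 3.15 to 129 CPM in Control libraries, with the high values in Control replicates 1 and 2, where Klrb1c took most of the counts (chosen after its values were seen). The 6 dendritic cell markers summed to 31.8 to 51.1 CPM in UBKO and 48.9 to 85.8 CPM in Control libraries, where the groups overlap. Of these 1 was lower, Clec10a, which macrophages also express (log2 difference -1.98, edgeR adjusted p = 0.00239), against 7.56% of all genes. After total-count scaling 3 were lower, against 27.8% of all genes.

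Among cells of the fat pad itself, 2 of 10 adipocyte markers were higher and 0 lower (Retn and Pparg; Retn without Control replicates 1 and 2; 1 higher and 1 lower after total-count scaling, 2 higher and 1 lower by DESeq2), with a median log2 difference of 0.46, and their summed level was 20764 to 30320 CPM in UBKO and 13310 to 25537 CPM in Control libraries. Of 5 endothelial markers 2 were higher and 0 lower, Emcn and Kdr (Kdr without Control replicates 1 and 2). The calls of Emcn and Pparg ended with scaling by total counts (edgeR adjusted p = 0.0858 and 0.0664). Of 6 stromal progenitor markers 3 were lower and 0 higher, Pdgfra, Col1a1 and Col3a1, and 3 were lower after total-count scaling. Beside the counts of these lists, 7.56% of all genes were lower and 3.88% higher. With scaling by total counts 27.8% were lower and 1.46% higher. The calls of Pparg, Emcn, Kdr and the 3 stromal genes ended without the library labelled UBKO replicate 3 (edgeR adjusted p between 0.0543 and 0.115), and also without UBKO replicate 4 (0.0515 to 0.125). Those of Pparg, Col1a1 and Col3a1 ended without UBKO replicate 1 too (0.0562 to 0.105), and that of Pparg without Control replicate 1, 2, 4 or 5 (0.0501 to 0.0765). The part of these shifts in the values of the oxidase genes was not tested.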

How the data were processed

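RNA sequencing of 4 UBKO and 5 Control libraries was analysed from 1 table. Per the labels' protocols, RNeasy columns gave the RNA and a TruSeq RNA kit the libraries, which were read from both ends. HISAT2, SAMtools 1.3.1, Cuffdiff and mm10 appear in the submitters' processing notes, and the role of each, the counter and the annotation were not stated. The authors deposited whole-number read counts and FPKM per gene and library, and their own log2 ratio of mean FPKM with a p-value and q-value from an unnamed test. No column of per-sample values was left unused.

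All 9 libraries entered one fit of the counts by edgeR 4.0.16, run in R 4.3.3 (filterByExpr by group, TMM, glmQLFit and glmQLFTest, genotype as the only term, two-sided, Benjamini-Hochberg over 16123 genes, threshold 0.05). The SE was derived from the log2 difference and its F statistic. A second fit used the summed counts of 12 macrophage markers, rescaled, as library size for the same genes. Alternatives were DESeq2 1.42.0 (size factors, Wald test), scaling by total counts, no filter, limma 3.58.1 on log2(FPKM + 1) or log2(FPKM + 0.1) with and without a filter of 1 FPKM in 4 libraries, each library left out, Control replicates 1 and 2 left out, the replicate number as a block, other marker references and the authors' comparison. Both fits were tested on simulated data. In these the macrophage markers were set equal between the groups, so the second fit was not tested with markers that fall.

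The titles gave each library its group and replicate number. No pair of replicates was a duplicate (lowest chi-square per degree of freedom 15.5). Library totals set the precision. The members and all 19 gene lists were chosen with earlier results of these data known. Named were the 7 members, Ctnnb1, Ucp1, up to 4 genes of each list with the smallest p or that bear on a small count, and the 6 genes most like Cybb (log2 CPM with a prior count of 2); 1 list and several named genes are not reported here. Neutrophil and NADPH oxidase genes without a row in the table were not analysed here.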

Additional observations from a re-analysis of the deposited data

Results flagged for a closer look

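Of 64 groups of values examined, 6 held a library far from the others of its group, where chance alone flags about 1 in 20. Coro1a in Control replicate 1 stood at 43.7 reads per 1000 macrophage marker reads, the highest of its group. Ncf4 in Control replicate 1 stood at 7.78 on the same scale, also the highest. The share of Cyba in the summed FPKM of the 7 oxidase genes was highest in UBKO replicate 2 among UBKO libraries, at 68.8%, and in Control replicate 5 among Control libraries, at 67.7%. Tctn1, which overlaps Hvcn1, was highest in UBKO replicate 2 among UBKO libraries, at 15.3 CPM. The summed neutrophil markers were highest in the library labelled UBKO replicate 3 among UBKO libraries, at 5.66 CPM.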

How the results depend on the processing

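The count of 6 oxidase genes lower and 0 higher held within 1.5 times under all 19 alternatives, and of 133 gene values 131 kept their direction and side of the threshold; the other 2 were Hvcn1, which passed with total-count scaling and with DESeq2. Relative to macrophage markers, the count of higher members was 1, where 93.2% of all genes tested were higher. It was 0 without a filter, where 66.3% of all genes were higher. In fits that left out 1 library it was 0 to 1, where 90.4% to 94.6% of all genes were higher. On that scale the sign of Cybb, near 0, turned with markers weighted equally (-0.076), without Control replicates 1 and 2 (-0.018), under the replicate block (-0.023) and in fits that left out 1 library (-0.12 to 0.10). That of Ncf4 turned with pan-leukocyte markers (0.047), without Control replicates 1 and 2 (0.079) and in fits that left out 1 library (-0.29 to 0.12). The cause was not tested.

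Over all genes, 1219 lower and 626 higher became 4482 and 236 with total-count scaling, 810 and 300 without a filter, 782 and 240 without Control replicates 1 and 2, 1894 and 1136 with DESeq2, 3743 and 280 with limma on log2(FPKM + 1), 3814 and 247 with log2(FPKM + 0.1), 3407 and 207 without its filter, 998 and 295 in the authors' deposited table, and 604 to 1495 and 152 to 954 when 1 library was left out. The replicate block gave 556 and 191; same-numbered libraries deviated together with correlations of -0.179 to 0.54, 1 of 4 UBKO libraries was most like its own number, and the block ended no call of the 7 genes. Depth was lowest for Ncf4, with 14 to 41 counts per UBKO library, while Hvcn1 had the largest SE of the 7 genes (0.47).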
